A study of Homo sapiens with 16 samples.

Results

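Chaperonins are barrel-shaped folding machines that enclose an unfolded protein and release it after cycles of ATP hydrolysis. The mRNAs of 10 human chaperonin genes were followed here, chosen by gene symbol: the 8 subunits of the cytosolic chaperonin CCT (TCP1, CCT2, CCT3, CCT4, CCT5, CCT6A, CCT7 and CCT8) and the mitochondrial pair HSPD1 and HSPE1. All 10 were among the 13148 genes measured. The samples were 293S cells, an established human line related to HEK293, given 1 mM sodium arsenite for 30 minutes, and untreated 293S cells as control. Arsenite binds thiol groups and sets off a stress response in which translation initiation is inhibited. For each treatment, RNA was run on a sucrose gradient, which separates mRNAs by the size of the particles that carry them, and 8 fractions per gradient were sequenced. With 1 library for each treatment and fraction, 16 in all, there was no replicate, so no test was possible and no difference below has a replicate check.

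CCT, also called TRiC, folds actin, tubulin and many other proteins of the cytosol, and each of its subunits occupies a fixed place in the ring. HSPD1, or HSP60, forms the ring of the mitochondrial matrix, and HSPE1, or HSP10, is the lid that closes it. An mRNA that is being translated carries several ribosomes and travels as a polysome, whereas one that is not initiated travels as a smaller particle. The end of the gradient at which fraction 1 was taken was not given in the sources used here.

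For each gene the authors deposited its share in each fraction, so that the 8 shares of a gradient add up to its total. These shares hold neither the level of an mRNA nor the number of reads behind it, so a gain in some fractions cannot be told apart from a loss of RNA in others, and marker levels of the cell line could not be checked. Position is the mean fraction number weighted by the shares. Shift is the position with arsenite minus the control position, and relative shift is the shift minus that of the median gene, which was −1.46 fractions. Nearly all genes lay at lower numbers with arsenite, 98.3% of them with a negative shift. None of the 10 members was listed at 0 in any library. The same held for most genes, as 1523 of the 13148 were listed at 0 in any library.

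In the deposited shares, the 8 CCT mRNAs had less of their total in fractions 5 to 8 with arsenite, and more in fractions 1 to 3. Their median position was 2.80 with arsenite and 5.78 in the control. In fractions 5 to 8 together they had a median of 11.5% of their total with arsenite, against 80.5% in the control. The median gene had 16.4% there with arsenite and 53.9% in the control. With arsenite CCT2 and CCT6A lay further along than the median gene, and in the control all 8 did.

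**Figure D1:**
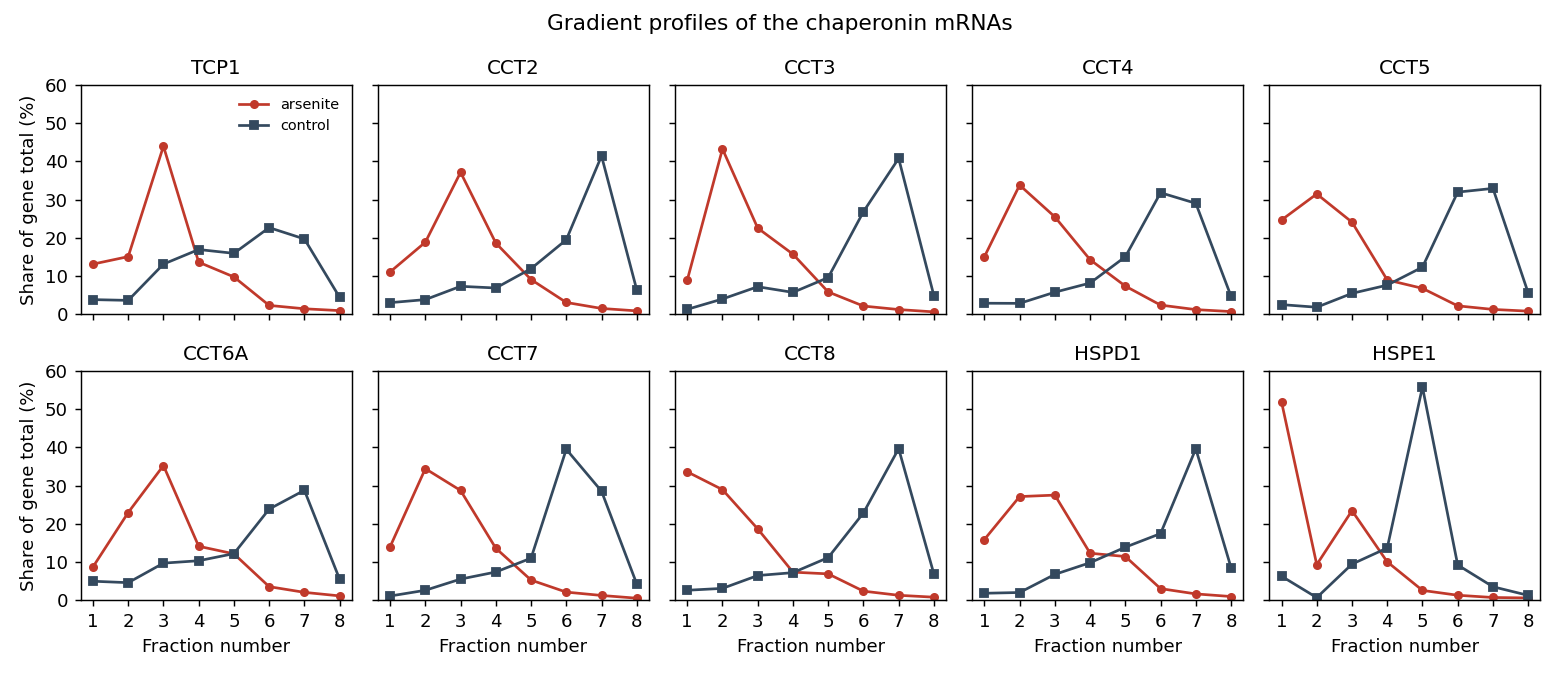
Share of each gene's total in percent against fraction number for the 8 CCT mRNAs, HSPD1 and HSPE1, with arsenite (red circles) and in the control (dark squares), 1 library per point. The CCT and HSPD1 profiles peak in fraction 6 or 7 in the control and in fractions 1 to 3 with arsenite, while HSPE1 peaks in fraction 5 in the control and in fraction 1 with arsenite.

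The beta subunit CCT2 had 11.04, 18.8, 37.1, 18.6, 9.05, 3.05, 1.48 and 0.842% of its total in fractions 1 to 8 with arsenite. In the control its shares were 2.99, 3.79, 7.28, 6.83, 11.9, 19.5, 41.4 and 6.35%. Its peak thus lay in fraction 3 with arsenite and in fraction 7 in the control.

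CCT3, the gamma subunit, had shares of 8.88, 43.2, 22.5, 15.7, 5.80, 2.11, 1.19 and 0.581% with arsenite. Control shares of CCT3 were 1.25, 3.96, 7.17, 5.68, 9.57, 26.8, 40.8 and 4.81%. Fraction 2 alone held more of CCT3 with arsenite than fraction 7, its largest, did in the control.

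The delta subunit CCT4 had 15.0, 33.8, 25.5, 14.2, 7.33, 2.36, 1.18 and 0.662% in the 8 fractions with arsenite. Without treatment CCT4 had 2.85, 2.81, 5.73, 8.13, 15.0, 31.8, 29.01 and 4.68%. For CCT7, the eta subunit, the shares were 14.0, 34.4, 28.7, 13.6, 5.28, 2.13, 1.25 and 0.536% with arsenite and 1.11, 2.61, 5.54, 7.39, 11.02, 39.5, 28.6 and 4.27% in the control. CCT4 and CCT7 both peaked in fraction 2 with arsenite and in fraction 6 in the control.

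CCT5, the epsilon subunit, had 24.6, 31.5, 24.1, 8.94, 6.74, 2.16, 1.23 and 0.772% with arsenite. Its control shares were 2.48, 1.80, 5.43, 7.58, 12.3, 31.9, 32.9 and 5.57%. The theta subunit CCT8 had 33.6, 28.96, 18.7, 7.35, 6.91, 2.38, 1.30 and 0.8001% with arsenite and 2.61, 3.10, 6.47, 7.23, 11.2, 22.9, 39.7 and 6.87% in the control. CCT8 was the only CCT mRNA whose largest share with arsenite was in fraction 1.

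The alpha subunit TCP1 and the zeta subunit CCT6A had the flattest control profiles of the complex. TCP1 had 13.1, 15.0, 44.0, 13.6, 9.73, 2.28, 1.39 and 0.911% with arsenite and 3.79, 3.59, 13.1, 16.9, 15.9, 22.6, 19.7 and 4.39% in the control. CCT6A had 8.72, 23.0, 35.3, 14.1, 12.1, 3.55, 2.06 and 1.14% with arsenite and 4.98, 4.60, 9.71, 10.3, 12.2, 23.9, 28.8 and 5.51% in the control. The control share of TCP1 in fractions 5 to 8 was 62.6% and that of CCT6A 70.4%, whereas the other 6 subunits lay between 79.1% for CCT2 and 83.4% for CCT7.

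In the control, CCT3 lay furthest along, at a position of 5.86, followed by CCT8 at 5.83, CCT5 at 5.81, CCT7 at 5.79, CCT2 at 5.77, CCT4 at 5.64, CCT6A at 5.34 and TCP1 at 5.06. Over all 8 subunits the SD between genes was 0.286 fractions in the control and 0.286 with arsenite. Leaving out TCP1 and CCT6A, which lay lowest in the control, gave 0.0749 in the control and 0.25 with arsenite. They were left out for their control positions, which by itself lowers the control SD, so these values cannot be set against each other. In the whole table, 90.1% of genes lay below CCT6A in the control and 98.2% below CCT3, but only 80.0% below TCP1. With no replicate, the spread of a single position is unknown, and neighbours in this order cannot be told apart.

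With arsenite, CCT8 lay lowest, at 2.41, followed by CCT5 at 2.57, CCT7 at 2.76, CCT4 and CCT3 at 2.80, TCP1 at 3.09, CCT2 at 3.15 and CCT6A at 3.23. These positions straddled that of the median gene, 3.10, with 16.2% of all genes below CCT8 and 58.2% below CCT6A. Over all 8 subunits, positions thus ran from 2.41 to 3.23 with arsenite and from 5.06 to 5.86 in the control.

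**Figure D2:**
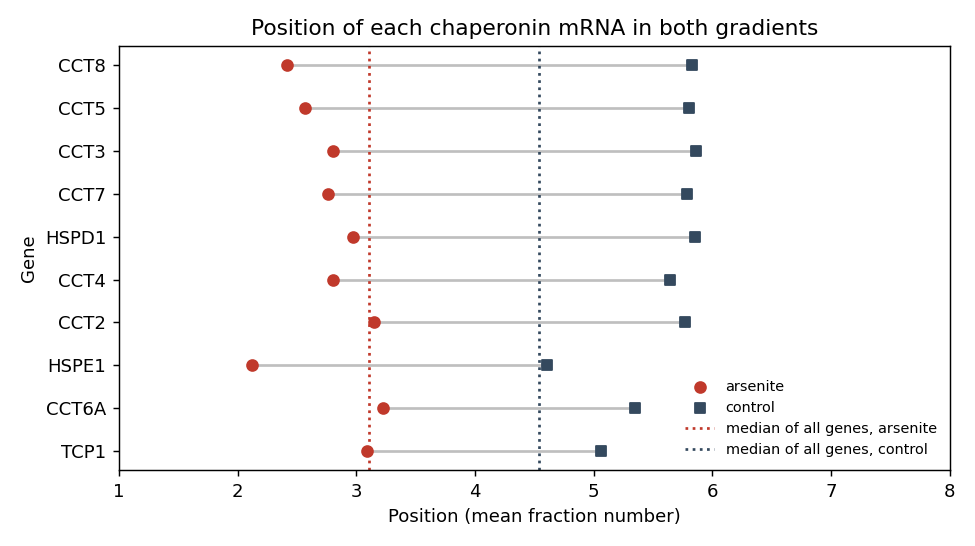
Position, as mean fraction number, of the 10 chaperonin mRNAs with arsenite (red circles) and in the control (dark squares), ordered from the lowest relative shift at the top to the highest at the bottom. Dotted lines mark the median gene at 3.10 with arsenite and 4.54 in the control; CCT2 to CCT8 other than CCT6A lie between 5.64 and 5.86 in the control.

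Genes were called moved where the size of the relative shift reached 0.5 fractions and its sign held when any 1 fraction number was dropped. All 8 CCT mRNAs were called moved lower, and so were HSPD1 and HSPE1, against 24% of all genes. No member was called moved higher, against 23.6% of all genes. The relative shift was −1.96 fractions for CCT8, −1.78 for CCT5, −1.60 for CCT3, −1.57 for CCT7, −1.39 for CCT4, −1.16 for CCT2, −0.66 for CCT6A and −0.52 for TCP1. The median over CCT was −1.48. Only 0.103% of all genes lay below CCT8 and 0.369% below CCT5, whereas 24.8% lay below TCP1.

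**Figure D3:**
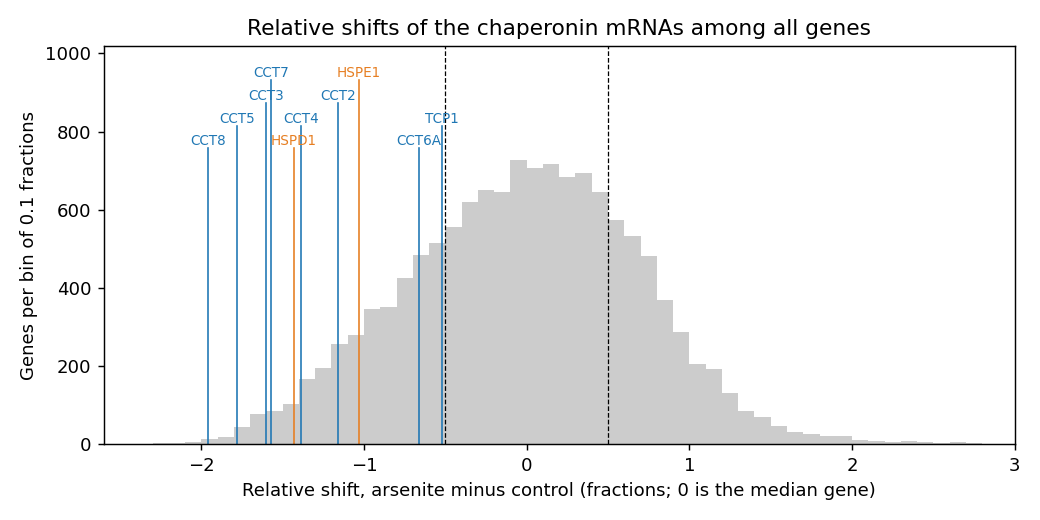
Number of genes per bin of 0.1 fractions of relative shift (grey bars, x axis drawn from −2.6 to 3), with the values of the CCT mRNAs (blue lines) and of HSPD1 and HSPE1 (orange lines). Dashed lines mark the threshold of 0.5 fractions; the members run from −1.96 for CCT8 to −0.52 for TCP1, just past it.

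TCP1 and CCT6A were near the threshold. Without fraction 7, the relative shift of TCP1 was −0.34 and that of CCT6A −0.32, and neither was called. TCP1 also fell short of the call under 5 other settings, at −0.48 to −0.50. The other 6 subunits were called under every setting tried, with CCT2 nearest to the threshold, at −0.59 without fraction 7.

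**Figure D4:**
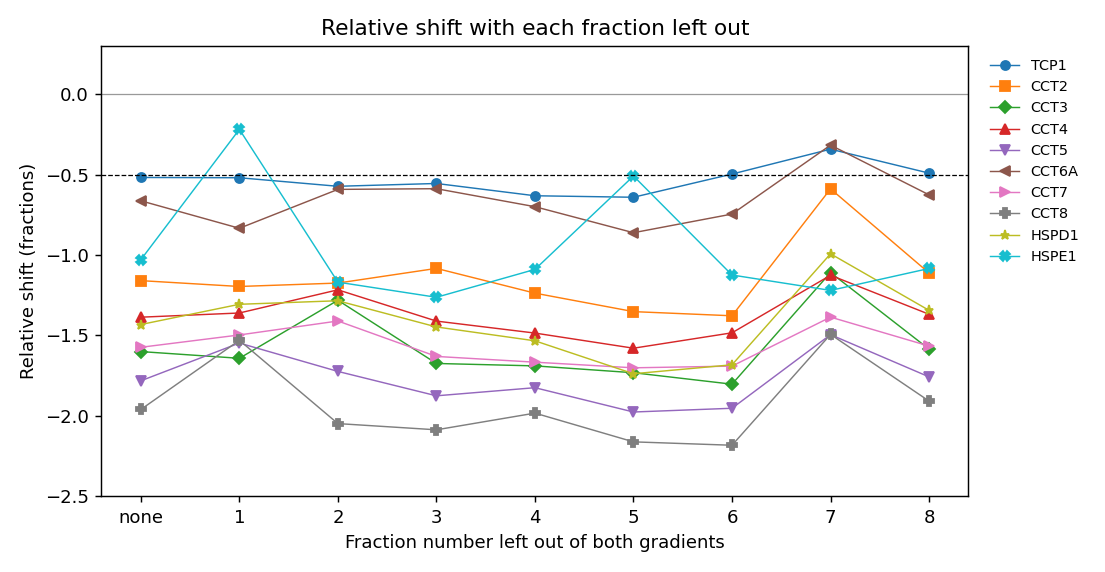
Relative shift in fractions of each chaperonin mRNA with all fractions (none) and with each fraction number left out of both gradients. The dashed line marks −0.5; without fraction 7 TCP1 and CCT6A lie above it at −0.34 and −0.32, and without fraction 1 HSPE1 does at −0.22.

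Members were also compared with genes of like control position. The 7 members with a control position from 5.6 to 5.9 were set beside the 414 other genes in that range. Those genes had a median position with arsenite of 3.502, with quartiles of 3.15 and 3.87, and 68.1% of them were called moved lower. CCT2 lay at the lower quartile, at 3.15, and CCT3, CCT4, CCT5, CCT7 and CCT8 lay below it, as did HSPD1 at 2.97. In this range 1.45% of genes lay below CCT8 with arsenite, 3.38% below CCT5, 7.49% below CCT3 and 24.9% below CCT2. For TCP1 and CCT6A, the 1919 other genes with control positions from 5.0 to 5.4 had a median of 3.30 with arsenite. TCP1 (36.1% below it) and CCT6A (44.9%) lay between the quartiles of that class, 2.91 and 3.70, and 43.6% of the class was called moved lower. Around HSPE1, 1717 other genes with control positions from 4.5 to 4.7 had a median of 3.14 with arsenite, and 7.40% of them lay below HSPE1. Of these genes, 21.0% were called moved lower.

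Fraction by fraction, the largest change in CCT mRNAs was in fraction 7. The range over the 8 subunits there was 1.18 to 2.06% with arsenite and 19.7 to 41.4% in the control, and their median log2 ratio, arsenite over control, was −3.86 after adding 1 percentage point to each share. All 8 were at least 2-fold lower there (a log2 ratio of −1 or less), as were 82.6% of all genes, whose median ratio was −1.86. In fraction 2 the subunits had 15.0 to 43.2% with arsenite and 1.80 to 4.60% in the control, a median log2 ratio of 3.01 against 1.5 for all genes. The 8 subunits were at least 2-fold higher in fraction 2, as were 71.6% of all genes.

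Fraction 6 held 2.11 to 3.55% of CCT mRNAs with arsenite and 19.5 to 39.5% in the control. The median log2 ratio in fraction 6 was −3.01, against −1.85 for all genes, and 78.6% of all genes were at least 2-fold lower. In fraction 3, where 35% of genes were at least 2-fold higher, all 8 subunits were, with 18.7 to 44.0% with arsenite and 5.43 to 13.1% in the control. Fraction 5 differed less, with a median log2 ratio of −0.65 for CCT and −0.72 for all genes, and it turned to 0.37 for CCT with median-of-ratios size factors, which even out the libraries for the typical gene. With these factors the CCT medians kept their direction in the other 7 fractions but were smaller in size in 6 of them. Fraction 7 then had a CCT median of −1.74, fraction 2 one of 1.70 and fraction 8 one of −0.82. For fraction 6 it was −0.73, under 2-fold, with 1 of the 8 subunits above 0.

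Size factors moved the shift of the median gene to −0.23 fractions. Relative to it, the CCT mRNAs lay lower again, by −1.88 fractions in median, and all 8 were called moved lower, against 26.4% of all genes. CCT8 then had a relative shift of −2.55, TCP1 of −0.79 and CCT6A of −0.52. Against the median gene, the CCT median of the log2 ratio was −2.00 in fraction 7 and 1.51 in fraction 2, and −1.68 and 1.78 in the same fractions with size factors.

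The CCT mRNAs were compared in pairs by the percentage of the total that would have to lie in other fractions for their profiles to be equal. Over the 28 pairs the median was 18.9% with arsenite and 13.8% in the control, and 19 pairs were further apart with arsenite. These pairs reuse the same 8 genes, and pairs of other genes were not counted. CCT2 and CCT8 were closest in the control, 4.31% apart, and were 32.7% apart with arsenite. Picking the closest control pair by itself favours a larger distance with arsenite. CCT4 and CCT7 were 4.04% apart with arsenite and 7.74% in the control. TCP1 stood 13.6 to 26.0% from the other subunits in the control, while the 21 pairs without it were 4.31 to 20.6% apart. The replicate error of these distances is unknown.

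HSPD1 had a profile like those of the CCT mRNAs. Its shares were 15.9, 27.1, 27.5, 12.3, 11.5, 3.04, 1.66 and 0.976% with arsenite and 1.83, 2.03, 6.77, 9.83, 13.9, 17.5, 39.6 and 8.56% in the control. HSPD1 lay at 2.97 with arsenite and 5.86 in the control, with a relative shift of −1.43, against the CCT median of −1.48. It was 8.56 to 19.5% apart from the CCT subunits with arsenite and 7.20 to 24.1% in the control, within the range of the CCT pairs in each gradient. The likeness was not particular to CCT. Averaged over the gradients, CCT2 was the subunit nearest to HSPD1, but it would rank only 113 among genes outside the members.

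HSPE1 had a different profile, with 52.0, 9.33, 23.5, 10.1, 2.57, 1.31, 0.718 and 0.602% in fractions 1 to 8 with arsenite. In the control it had 6.30, 0.693, 9.46, 13.7, 55.8, 9.23, 3.54 and 1.277%. More than 50% of HSPE1 lay in a single fraction in each gradient, fraction 1 with arsenite and fraction 5 in the control. Its position was 2.12 with arsenite and 4.60 in the control, and its relative shift was −1.03. HSPE1 was 25.8 to 44.0% apart from the CCT subunits with arsenite and 42.4 to 61.6% in the control, more than any CCT pair in the control. In fraction 5 it was the only member at least 2-fold lower, with a log2 ratio of −3.99, as were 41.9% of all genes.

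The call of HSPE1 rested on few fractions. Its relative shift was −0.22 without fraction 1 and −0.51 without fraction 5, and it was not called without fraction 1, 3 or 5, since its sign then did not hold with a further fraction dropped or its size was too small. With size factors HSPE1 was called lower, at −1.34, but lay at only −0.04 without fraction 1. The CCT median minus HSPD1 alone was −0.05 fractions of relative shift, and minus HSPE1 alone −0.45. The median over the mitochondrial pair was −1.23, so the difference of CCT from the pair was −0.25, under the threshold of 0.5 fractions.

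The coding sequence of HSPE1 has 306 nt, against 1593 nt for CCT6A to 1719 nt for HSPD1 among the other 9 members, in GENCODE release 29. Across the 12317 genes with a coding length, position was higher for longer coding sequences, with a Spearman correlation of 0.67 with arsenite and 0.38 in the control, across genes that are not independent and share the same libraries. Among 291 other genes with 240 to 360 nt of coding sequence, the median position was 2.14 with arsenite and 4.07 in the control. HSPE1 was thus at the middle of this class with arsenite (49.8% of them below it) and above most of it in the control (91.4% below it). The median relative shift of the class was −0.43, and 35.1% of it was called moved lower. By relative shift, 17.5% of the class lay below HSPE1. Over all genes with a coding length, relative shift had a Spearman correlation of 0.26 with that length. Fraction 1 was the largest fraction with arsenite for 65.3% of these short genes, as for HSPE1.

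Among 1317 other genes with 1500 to 1800 nt of coding sequence, the median position was 3.16 with arsenite and 4.61 in the control, and 22.1% were called moved lower. Of these genes, 98.7% lay below CCT3 and HSPD1 in the control, 89.3% below CCT6A and 78.1% below TCP1. With arsenite, 4.10% of them lay below CCT8, 7.52% below CCT5, 31.4% below HSPD1 and 56.8% below CCT6A. The quartiles of their positions with arsenite were 2.88 and 3.44.

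HSPD1 and HSPE1 lie head to head on human chromosome 2 and are known as a gene pair served by a shared promoter region. The stretch between their start sites is shown because the mRNAs of these neighbours had unlike profiles, 36.1% apart with arsenite and 52.9% apart in the control. In RefSeq on GRCh38.p14, 104 bases lie between the HSPE1 start on the plus strand and the nearer of 2 HSPD1 starts on the minus strand, at chr2:197500275-197500378, given here on the plus strand. The second stretch, chr2:197500061-197500090 on the minus strand, lies between the 2 HSPD1 starts, and capitals mark overlapping matches to the heat shock element letters GAANNTTC or TTCNNGAA, each of which reads the same on both strands.
HSPD1-HSPE1 interval: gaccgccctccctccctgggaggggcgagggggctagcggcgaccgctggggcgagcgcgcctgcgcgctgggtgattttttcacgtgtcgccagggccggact
HSPD1 upstream stretch: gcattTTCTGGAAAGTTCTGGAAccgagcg
Either motif was in 4 of the 12 RefSeq promoter windows of the members (250 bases before to 50 after a start) and in 13.5% of all 35116 windows. The 4 were windows of CCT2, CCT4, HSPD1 and TCP1, and CCT6A had no entry. A match is a description of the letters and not a binding site.

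The genes whose 16 shares were most like the mean CCT profile were ALDH7A1 (5.39% apart, averaged over the gradients), RRM2 (5.53%), DNAJA1 (5.65%), CAP1 (5.93%) and RBBP7 (6.55%), against 30.3% for the median gene. ALDH7A1 is an aldehyde dehydrogenase, RRM2 the small subunit of ribonucleotide reductase, DNAJA1 a cytosolic HSP40 co-chaperone, CAP1 an actin-regulating protein and RBBP7 a histone-binding protein. ALDH7A1 lay at 2.98 with arsenite and 5.82 in the control. HSPD1 was 8.73% from the CCT mean and TCP1 17.7%. In likeness to that mean, HSPD1 would rank 33 and TCP1 1199 among genes outside the members. Closest to HSPD1 were XRCC5, the KU80 subunit of DNA end joining (5.51%), SRP54 of the signal recognition particle (5.85%) and PLS3, an actin-bundling plastin (6.68%). Closest to HSPE1 were the histone genes HIST1H2BO (7.65%) and HIST1H3B (8.25%) and NDUFB4 of respiratory complex I (8.33%).

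Proteins that work with CCT were taken as a list. Of 22 listed partners 21 were measured, 12 were called moved lower, 1 higher and 8 neither, and the median relative shift was −0.78 (0 for all genes, 24% of which were called lower). Prefoldin, which hands unfolded actin and tubulin to CCT, had 4 of its 6 subunits called lower: PFDN2 (−0.78, and −1.24 with size factors), VBP1 (−0.83, and −0.48 without fraction 5), PFDN4 (−1.001) and PFDN6 (−0.80, and −1.27), whereas PFDN1 (−0.28) and PFDN5 (0.29, and 0.11) were not called. VBP1 lay at 2.24 with arsenite and 4.52 in the control. The phosducin-like co-chaperones PDCL3 (−1.02) and PDCL (−0.68, and −0.46 without fraction 6) and TXNDC9 (−0.93) were called lower. Without fraction 1, PFDN2 lay at −0.19, PFDN4 at −0.28, PFDN6 at −0.42 and PDCL3 at −0.40, all smaller in size than with that fraction in, as was that of HSPE1.

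Of the tubulin cofactors, which take tubulin on from CCT, TBCB had the lowest relative shift of the partner list, at −1.18 (−1.88 with size factors and −0.71 without fraction 1), with positions of 1.99 with arsenite and 4.62 in the control. TBCA (−1.09, and −0.44 without fraction 1), TBCE (−0.98) and TBCD (−0.66, and −0.39 without fraction 7) were also called lower, and TBCC (−0.12, but 0.46 with size factors) was not. URI1, a prefoldin-like protein, was the partner called higher (0.74, and 1.26 with size factors), at 3.13 with arsenite and 3.85 in the control. UXT, also prefoldin-like, was called lower (−1.08), but lay at −0.05 without fraction 1 and was not called with size factors (−1.56). The chaperonin-like genes MKKS (−0.80, −1.36 with size factors and 0.10 without fraction 1), BBS10 (−0.03, and 0.11) and BBS12 (0.12, and −0.10), whose proteins act in assembly of the BBSome, were not called.

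Classic CCT substrates lay at −1.26 in median relative shift over 15 genes, 10 of them called lower, 1 higher and 4 neither, against 24% of all genes called lower and 23.6% higher. TUBA1A, an alpha-tubulin, had the lowest, at −2.14, and the beta-tubulin TUBB lay at 2.92 with arsenite and 5.84 in the control (−1.47, and −0.78 without fraction 7). ACTB, beta-actin, lay at 2.37 with arsenite and 5.396 in the control (−1.57), while ACTG1, gamma-actin, lay at 3.51 with arsenite and 5.44 in the control and was not called (−0.48), though it was called lower with size factors (−0.62). CDC20, the mitotic activator of the anaphase-promoting complex, had a relative shift of −1.66. VHL, the tumour suppressor that targets HIF for degradation, was the substrate called higher (0.79), at 3.15 with arsenite and 3.81 in the control. Actin and tubulin genes are near-identical within each family, which makes the values of single members uncertain. The median control position of the substrates was 5.31. Among the 1919 genes outside the members with control positions from 5.0 to 5.4, 43.6% were called lower.

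The mitochondrial folding and protease list lay at −0.62 in median relative shift over 15 genes, 10 of them called lower, none higher and 5 neither, against the same shares of all genes, 24% lower and 23.6% higher. GRPEL1, the nucleotide exchange factor of mitochondrial HSP70, had the lowest, at −1.46 (−0.83 without fraction 1), and its paralog GRPEL2 the highest, at 0.25 (0.62 with size factors, and then called higher). HSPA9, mitochondrial HSP70, lay at 3.26 with arsenite and 6.002 in the control (−1.29, and −0.83 without fraction 7). TRAP1, the mitochondrial HSP90, had a relative shift of −1.45, and LONP1, the matrix protease, of −0.64 (−1.24 with size factors and −0.34 without fraction 7). The median control position of this list was 5.02, and 43.6% of genes outside the members with control positions from 5.0 to 5.4 were called lower.

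**Figure D5:**
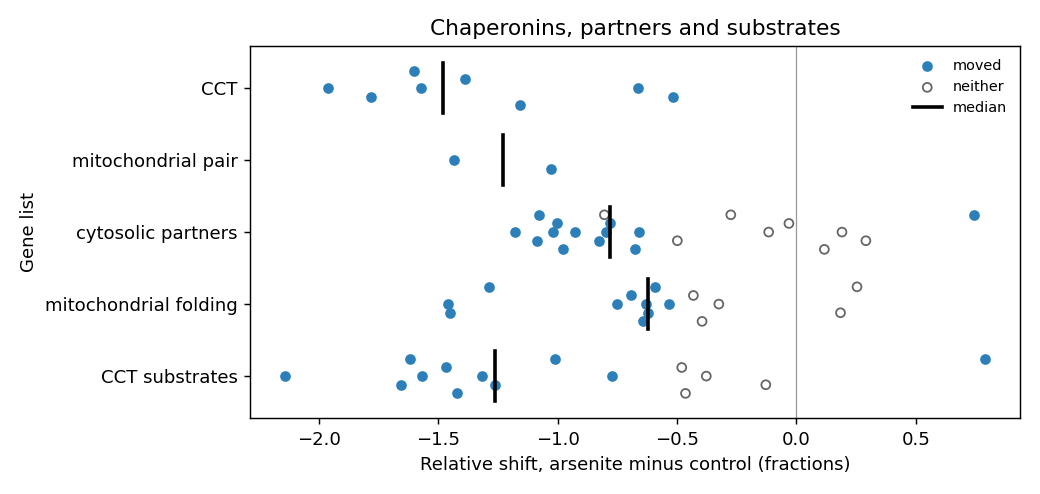
Relative shift in fractions of each measured gene in 5 lists, with filled points for genes called moved, open points for the others and black bars for list medians. The CCT and substrate medians lie at −1.48 and −1.26, and those of the partners and of mitochondrial folding at −0.78 and −0.62.

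Reads from closely related sequences could be assigned to more than 1 of these genes, and how they were counted was not given in the sources used here. GENCODE release 29 lists 26 pseudogenes named after HSPE1, 17 after HSPD1 and at most 4 after any CCT gene. The readthrough gene HSPE1-MOB4 shares exons with HSPE1 and is a separate gene of the table. Their part in the HSPE1 values was not tested.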

How the data were processed

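Total RNA from gradient fractions of 293S cells was extracted with Trizol and made into libraries by a method called NSR, per the labels' protocols. The authors deposited 1 table of 13148 genes whose 16 library columns are in the unit fraction, the share of a gene's total in each fraction of its gradient. Per the file headers, they are for RefSeq exons, and hg19 was the build named in the submitters' processing notes. How reads were aligned and counted, and how fractions were scaled to each other, was not given in the sources used here. Mean fraction numbers and their difference came as 3 score columns deposited by the authors, which matched values recomputed from the shares within 1e-14. No depth can be had from shares, and intervals and detection floors were therefore left out.

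Members, lists, thresholds and comparison ranges were chosen with earlier results of these data known. The named genes were all members, the 5 genes nearest to the mean CCT profile, the 3 nearest to each of HSPD1 and HSPE1, the extremes of each list, and HSPA9, TRAP1, LONP1, ACTB, TUBB, VBP1 and TXNDC9. Other list members were named after their values were seen. Median-of-ratios size factors over genes with no 0 were the alternative scaling. A coding length, from 1 principal transcript per gene in GENCODE release 29, was found by symbol for 93.7% of genes. The code for the calls was checked on simulated profiles, which gives no error for these libraries. Python 3.11.15, numpy 2.4.6 and pandas 2.3.3 were used.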

Additional observations from a re-analysis of the deposited data

How the results depend on the processing

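No paired analysis was possible because each treatment and fraction had 1 library. The median relative shift of CCT stayed lower than −0.5 under every alternative, from −1.12 without fraction 7 to −1.88 with size factors, and was −1.59 without TCP1 and CCT6A, an alternative chosen after seeing the data. For the mitochondrial pair it ran from −0.76 without fraction 1 to −1.70 by the 50% point, the fraction number below which 50% of a gene lay. The count of members called lower was 8 to 10 of 10, with 8 at a threshold of 1 fraction and 8 without fraction 7. The share of all genes called lower was taken only for the call as reported (24%) and with size factors (26.4%). The other counts therefore have no background beside them. Of 120 relative shifts of single members under 12 alternatives, 112 stayed past the threshold, 8 fell short of it and 0 changed sign. The difference of CCT from the pair did not hold its size or sign: it was −0.25 in the report, −0.67 without fraction 1, −0.52 without fraction 5 and 0.0439 by the 50% point, and the cause was not tested. With a pseudocount of 10 in place of 1, the CCT log2 ratios of fractions 1 and 8 were 0.85 and −0.48, under 2-fold, against 2.10 and −1.83, while fraction 7 was −1.87 against −3.86, fraction 6 was −1.51 against −3.01 and fraction 2 was 1.67 against 3.01, because a larger pseudocount pulls ratios of small shares toward 0. By Pearson correlation, 3 of the 5 genes most like CCT were the same. Without replicates or read depth, the error of each share is unknown.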

Other observations

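CCT6B, a paralog of CCT6A known for expression in testis, lay at 2.67 with arsenite and 3.93 in the control and was not called, with a relative shift of 0.19 that was −0.75 with size factors. It was listed at 0 in 1 library. In fractions 5 to 8 it had 14.6% of its total with arsenite and 28.4% in the control, while CCT6A had 18.9% with arsenite and 70.4% in the control.

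The readthrough gene HSPE1-MOB4 had shares nearer to those of HSPE1 than to those of MOB4 in fraction 1 with arsenite and in fraction 5 in the control. It had 50.2% of its total in fraction 1 with arsenite and 50.2% in fraction 5 in the control. HSPE1 had 52.0% in fraction 1 with arsenite and 55.8% in fraction 5 in the control. MOB4, a kinase adaptor, had 24.99% in fraction 1 with arsenite and 35.3% in fraction 5 in the control. The relative shift of HSPE1-MOB4 was −1.04, that of HSPE1 −1.03 and that of MOB4 −0.54. Without fraction 1 they were −0.16 for HSPE1-MOB4, −0.22 for HSPE1 and −0.36 for MOB4. With size factors HSPE1-MOB4 (−1.57) and MOB4 (−0.47) were not called.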
